A study of Mus musculus with 67 samples.

Results

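Collagens and laminins are the main structural proteins of the extracellular matrix. In the eye they build the inner limiting membrane of the retina, the vascular basement membranes, the vitreous and Bruch's membrane, the layered sheet under the retinal pigment epithelium (RPE). Laminins are trimers of an alpha, a beta and a gamma chain that assemble first in a basement membrane, and network collagen IV is laid on them and tied to them by nidogens and perlecan. Fibrillar collagens give tensile strength, fibril-associated collagens decorate those fibrils, and transmembrane collagens sit at the cell surface.

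The genes described here were those of the retina and RPE tables whose mouse symbol has the form of a collagen chain (Col, number, a, number) or a laminin chain (Lama, Lamb or Lamc and a number), with a CPM (read count scaled to the library's size) of at least 1 in at least 3 libraries of the tissue. The mouse name table held 55 such symbols, 44 collagens and 11 laminins. In the retina 51 of 16926 tested genes qualified (40 collagens, 11 laminins), and in the RPE 48 of 16712 (37 and 11). Both tissues shared 46 of them and 53 qualified in at least 1 tissue. Col6a4, Col6a6, Col19a1, Col22a1 and Col26a1 qualified in the retina alone, and Col10a1 and Col14a1 in the RPE alone. None of the listed collagens or laminins failed the filter.

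RNA was sequenced from the retina and from the RPE of photosensitive mice, and every group used here was labelled abca4-/- rdh8-/-, the reference group included. The groups were NB (retina n = 6, RPE n = 5), 6h (n = 3 in each tissue), 1d (n = 4) and 3d (n = 4). The labels do not spell out NB, do not say from which event the times count and give no age. The 2 eyes of a mouse were pooled, RPE cells were shaken off the opened eyecup before the choroid was taken out, and the libraries were stranded mRNA libraries.

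Collagen IV genes lie in head-to-head pairs, and the collagen IV genes of the RPE are among those that moved together below, so their arrangement is given first, from RefSeq on GRCm38.p6. The gene records of Col4a1 (minus strand) and Col4a2 (plus strand) on chromosome 8 share 85 bases at their starts, and those of Col4a4 and Col4a3 on chromosome 1 share 114 bases. Col4a6 and Col4a5 on the X chromosome start 1274 bases apart, facing away from each other. Whether reads were counted by strand is not given in the sources used here, so reads of the shared bases of a pair may be split between its genes. Printed here, 5′ to 3′ on the gene's own strand, are the stretches just upstream of Col4a6 (chrX:141474096-141474326, minus strand) and Col4a5 (chrX:141475169-141475369, plus strand), and that upstream of Col16a1 (chr4:130047590-130047816, plus strand), the member with the highest retinal fold changes at 6h, 1d and 3d. Each lies outside the protein-coding gene records, and that of Col16a1 lies inside the record of the lncRNA gene Gm12963. Capitals mark the GC box GGGCGG, read on both strands.
Col4a6: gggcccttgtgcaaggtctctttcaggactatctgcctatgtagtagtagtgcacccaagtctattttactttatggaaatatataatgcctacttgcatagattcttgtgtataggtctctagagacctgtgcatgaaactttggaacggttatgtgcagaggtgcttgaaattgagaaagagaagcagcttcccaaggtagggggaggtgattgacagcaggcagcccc
Col4a5: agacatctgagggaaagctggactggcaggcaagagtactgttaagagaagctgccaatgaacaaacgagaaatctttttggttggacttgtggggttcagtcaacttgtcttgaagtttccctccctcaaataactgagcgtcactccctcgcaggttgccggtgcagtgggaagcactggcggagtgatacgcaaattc
Col16a1: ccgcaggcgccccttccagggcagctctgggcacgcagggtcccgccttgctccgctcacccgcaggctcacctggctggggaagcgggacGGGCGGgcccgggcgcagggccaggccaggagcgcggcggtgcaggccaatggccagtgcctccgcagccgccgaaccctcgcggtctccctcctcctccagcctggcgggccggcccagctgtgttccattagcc
The Col16a1 stretch held 75.8% G and C and 1 GC box, against 49.8% and 45.5% G and C and no GC box in the stretches of Col4a5 and Col4a6, whose full promoter windows hold one inside the gene record. Promoter windows of 300 bases (250 before and 50 from the start on) were found for 38 of the 53 members. A GC box was in the window of 24 of those 38 members (63.2%) and of 38.2% of all 27025 genes with a window. The AP-1 letters TGANTCA, on either strand, were in the window of 1 member, Col6a1, and in 8.97% of all genes. The STAT letters TTCNNNGAA, which read the same on both strands, were in that of Lamb2 alone among members, and in 9.55% of all genes. A match describes the letters only.

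Libraries fell into a deeper set (6h, NB A1 and, in the retina, NB A2) of 22.59 M to 32.35 M recovered reads and a shallower set of 9.45 M to 15.17 M, so 6h and the other times lie in different sets. The 2 genes of the genotype were read in all libraries: Abca4 averaged 797 ± 96.3 CPM in retinal NB (SD, n = 6) and Rdh8 40.4 ± 6.08, and RNA over a whole gene does not check a deletion. In the retina the summed CPM of 10 rod markers was 66725 to 74711 in NB, 39753 to 48315 at 6h, 21184 to 36501 at 1d and 35099 to 40813 at 3d. In bulk tissue fewer cells of a type and less RNA per cell cannot be told apart, and a lower rod share raises the CPM of other genes. Lens markers (8 genes, led by Cryaa) summed to 79 to 783 CPM in 6 retinal libraries (NB A2, 6h 2, 1d 2, 1d 3, 3d 1, 3d 2) and to 1962 to 8699 in the other 11, although the protocol removed the lens. RPE libraries held the RPE markers at 8839 to 30106 CPM in sum, and beside them 9 ciliary and surface epithelium markers, led by keratin 5 (Krt5), at 11811 to 49895 CPM, against 82.8 to 125.7 CPM in the retina, where 6 of the 9 are in the table.

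A gene was called higher or lower where limma's adjusted p, over all genes of the tissue, was under 0.05. In the retina at 6h, 7 of 51 members were higher than in NB and 3 lower, with a median log2 fold change of 0.17, while 16.9% of all genes were higher, 18.5% lower and their median was 0.00. At 1d 13 members were higher and 8 lower (median 0.17), with 24% of all genes higher and 27.5% lower (median -0.01). At 3d 17 were higher and 5 lower (median 0.22), with 19.3% of all genes higher and 23.9% lower (median -0.02). Shares of members called were thus below the background at 6h in both directions, and at 3d above it among higher genes. Markers of other cell types moved at the same times. Of 12 tested endothelium markers 2 were higher and 1 lower at 6h, and 7 were higher at 1d and 9 at 3d with none lower. Their summed CPM was 404 to 426 in NB, 412 to 451 at 6h, 634 to 677 at 1d and 670.0 to 769 at 3d. Of 10 fibroblast and pericyte markers none was called at 6h, 3 were higher at 1d and 6 at 3d, and none was lower. Their sums were 282 to 310.2 CPM in NB, 297 to 336 at 6h, 309 to 355 at 1d and 365 to 408 at 3d. Of 9 Muller glia and astrocyte markers 4 were higher and 2 lower at 6h, 5 and 2 at 1d, and 7 and none at 3d. Their sums were 4119 to 4671 CPM in NB, 3708 to 4209 at 6h, 3105 to 3516 at 1d and 5355 to 5784 at 3d. At 1d these sums lay below NB, though the median log2 fold change of the markers was 0.45. Of 9 microglia and macrophage markers 1 was higher and 2 lower at 6h, 4 and 3 at 1d, and 6 and none at 3d. Their sums were 29.7 to 44.9 CPM in NB, 36.2 to 44.5 at 6h, 39.0 to 52.9 at 1d and 118 to 136 at 3d. Of 9 RPE markers in the retina 4 were higher and none lower at 6h, none and 3 at 1d, and 2 and none at 3d. Their sums were 791 to 1074 CPM in NB, 1121 to 1382 at 6h, 687 to 885 at 1d and 1049 to 1318 at 3d. The part of these cell types in the members' values was not tested. Within the depth set of each group the counts of members were 5 and 3 at 6h, 14 and 7 at 1d, and 15 and 3 at 3d. Over all genes those fits called 2104 higher and 2185 lower at 6h, 3749 and 4315 at 1d, and 2957 and 3755 at 3d. Scaling to library totals instead moved the median of all genes by 0.15 at 1d and 0.12 at 3d and shifted the split, to 21 members higher and 6 lower at 1d and to 27 and 2 at 3d. Over all genes that split was 7062 higher and 2448 lower at 1d against 4057 and 4662, and 6005 and 1799 at 3d against 3265 and 4051. The 6h count of higher members was 4 without 6h 1. The 3d count of lower members was 3 without NB A1, NB A2, NB B4, 3d 2 or 3d 3, and 2 without 3d 1.

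**Figure D1:**
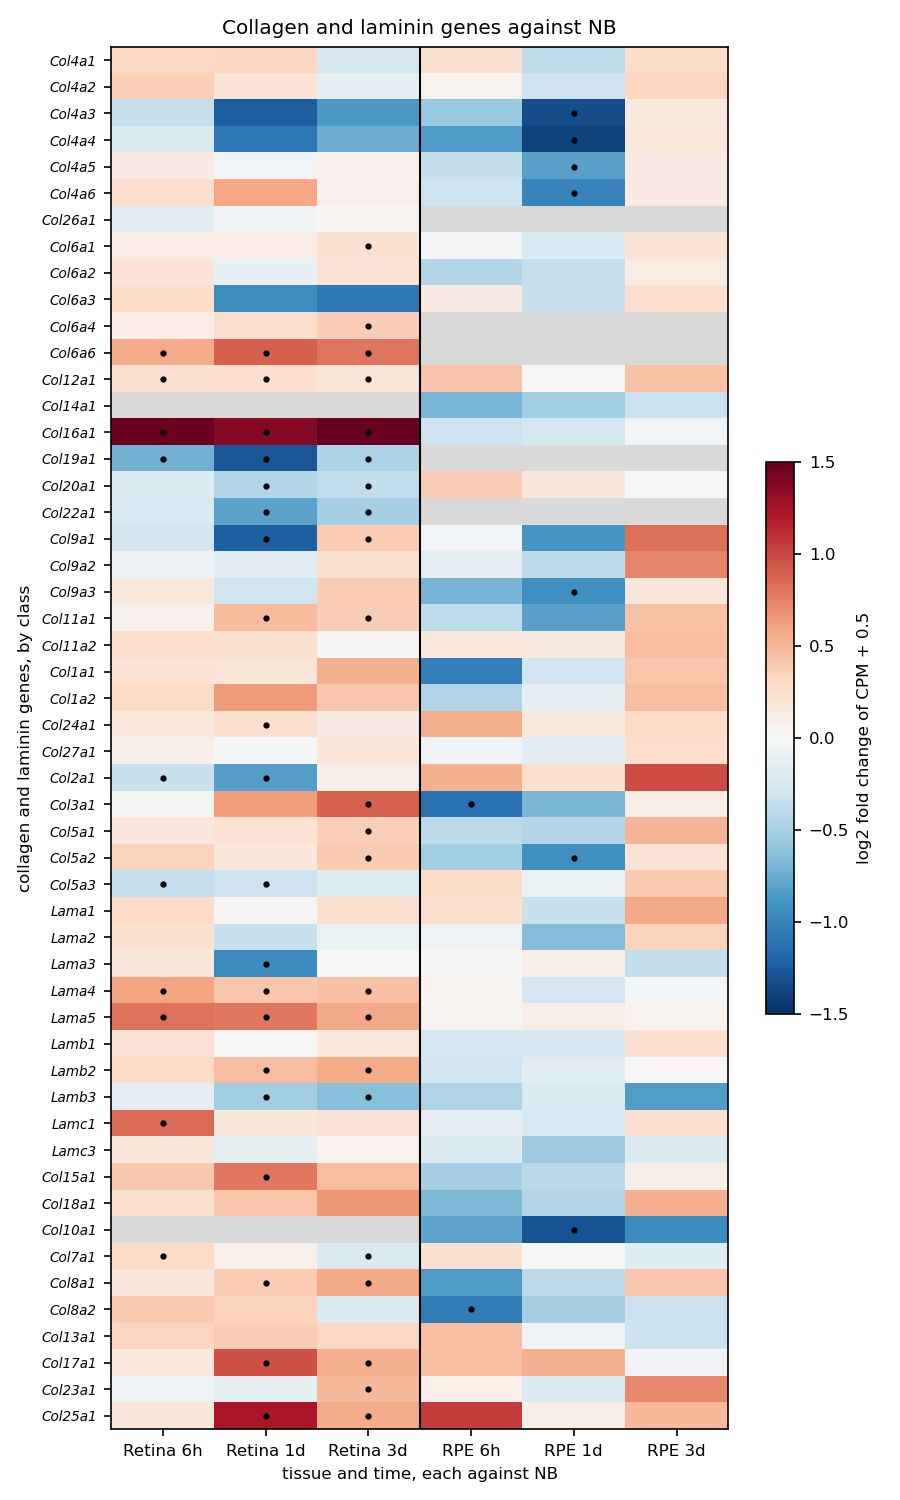
Heat map of log2 fold changes (colour scale, log2 of CPM + 0.5) of collagen and laminin genes (rows, by class) against NB at 6h, 1d and 3d in retina and RPE (columns). Dots mark calls at an adjusted p under 0.05 and grey cells genes outside the table of that tissue. Col16a1 is the deepest red in all 3 retinal columns, and collagen IV genes carry 4 of the 7 dots of the RPE 1d column; changes beyond 1.5 in size have the end colour.

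Among retinal laminin alpha chains, the chain of most adult epithelial basement membranes, Lama5, was higher at all times. Its NB libraries ran from 31.5 to 40.9 CPM (median 36.0). At 6h its values were 65.9, 54.6 and 71.1 CPM, at 1d 73.9, 52.1, 60.5 and 64.7, and at 3d 43.7, 53.8, 58.8 and 59.8. No library of the 3 later groups overlapped NB. The log2 fold changes were 0.81 ± 0.11 (SE, adjusted p = 1.5e-05), 0.79 ± 0.10 (2.8e-06) and 0.57 ± 0.10 (0.00018). Lama4, a chain of vascular basement membranes, was also called at all times (0.59 ± 0.17, 0.41 ± 0.16 and 0.45 ± 0.16), and its NB range of 2.75 to 5.89 CPM overlapped the 1d and 3d groups. Each of those calls was lost when single libraries were left out: without 6h 3 (adjusted p = 0.058), without any of 4 libraries at 1d (up to 0.11), and without 3d 3 or 3d 4 at 3d (up to 0.12). Lama3, the alpha chain of laminin-332, fell at 1d by 0.96 ± 0.24 on the log2 scale (adjusted p = 0.0027), with 6.24, 2.08, 3.402 and 4.72 CPM against 5.41 to 9.36 in NB, and the groups overlapped. In each group its lowest values lay in the libraries low in lens markers. These were 5.41 CPM in NB A2, 5.15 in 6h 2, 2.08 in 1d 2, 3.402 in 1d 3, 7.57 in 3d 1 and 6.52 in 3d 2. Lama1 and Lama2 were not called at any time.

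Beta and gamma chains split by time. Lamc1, the gamma chain shared by most laminins, was 36.5 to 45.2 CPM in NB (median 42.5) and 77.1, 65.9 and 83.7 at 6h. At 1d it was 59.4, 38.3, 43.1 and 49.99 and at 3d 40.3, 45.8, 56.0 and 53.6 CPM. The 6h group stood clear of NB (0.84 ± 0.12, adjusted p = 1.6e-05), while 1d (0.17 ± 0.11) and 3d (0.22 ± 0.11) were not called. Lamb2, the beta chain of synaptic and inner limiting membrane laminins, was 27.5 to 35.0 CPM in NB, and then 60.0, 34.1, 40.7 and 45.1 at 1d and 42.2, 49.2, 49.5 and 47.9 at 3d. Its calls came at 1d (0.46 ± 0.13, adjusted p = 0.0058) and 3d (0.56 ± 0.13, 0.0018), with no overlap at 3d. Lamb3, the beta chain of laminin-332, fell by 0.52 ± 0.18 at 1d and by 0.64 ± 0.18 at 3d, from 0.706 to 1.53 CPM in NB. It was 0.559, 0.496, 0.785 and 0.579 CPM at 1d and 0.764, 0.645, 0.286 and 0.414 at 3d. No 1d or 3d library reached 1 CPM, so Lamb3 passed the filter through NB libraries and 6h 2. Its falls are thus near the floor and not independent of the filter. Its 1d call was lost without NB A2, 1d 1 or 1d 2 (adjusted p up to 0.060). Lamb1 and Lamc3 were not called.

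**Figure D2:**
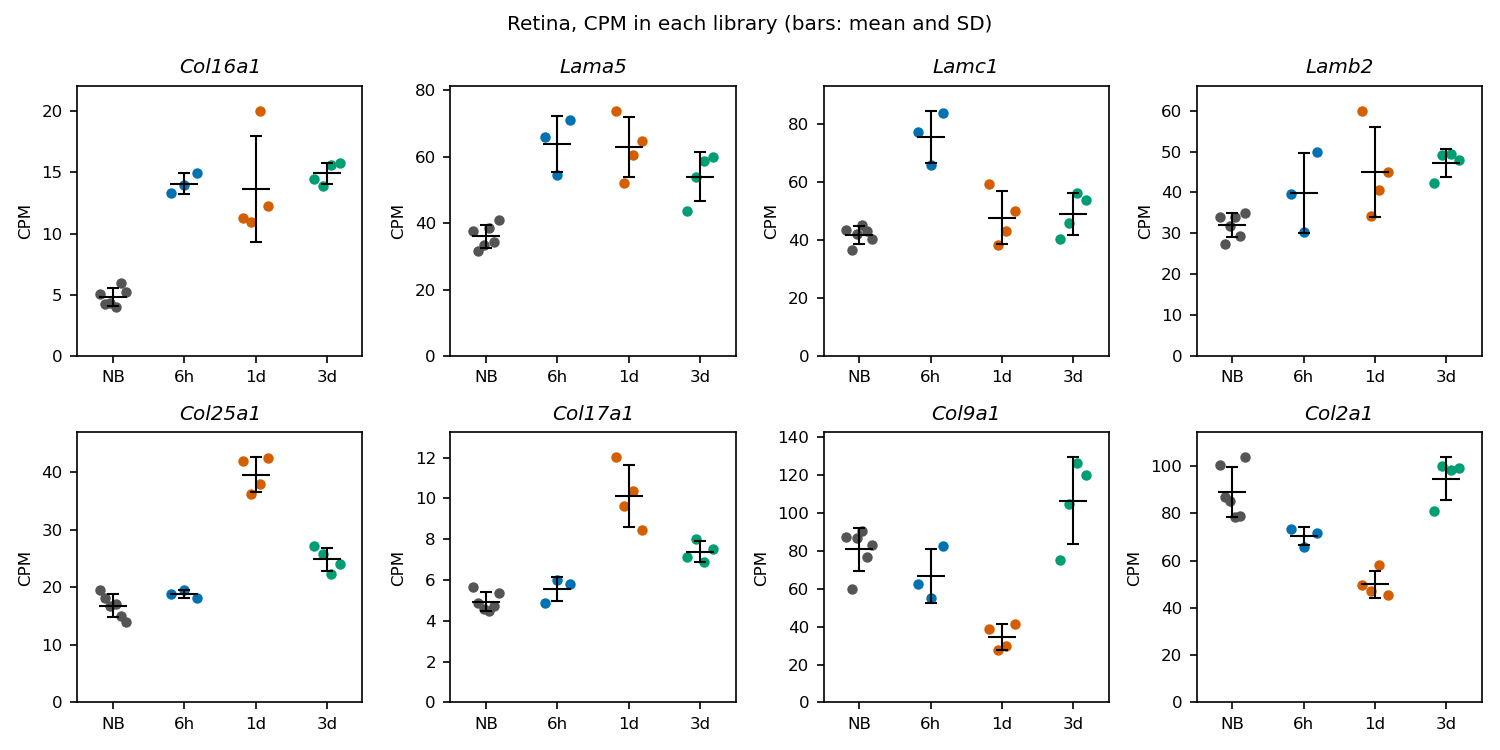
CPM (y axis, from 0) of 8 collagen and laminin genes in every retinal library (points) by group (x axis, NB n = 6, 6h n = 3, 1d and 3d n = 4), with the mean and SD as bars. Col16a1 and Lama5 lie above NB in every later library, Lamc1 at 6h alone stands clear of NB, and Col9a1 and Col2a1 dip at 1d and lie within or above the NB range at 3d.

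Basement membrane collagens gave no retinal call by limma, edgeR or DESeq2 in 6 genes at any time against NB (2 had an unadjusted limma p under 0.05 at 1d, and 0 at 6h and 3d). They varied widely between libraries of 1 group. Col4a1, which with Col4a2 forms the ubiquitous collagen IV trimer, ran from 47.0 to 315 CPM in NB (median 262). It was 313, 73.8 and 662 at 6h, 651, 125, 117 and 424 at 1d, and 80.8, 77.4, 366 and 357 at 3d. The 6 libraries at 47.0 to 125 CPM were the 6 with few lens marker reads, and the other 11 held 227 to 662 CPM. Col4a3, of the specialised trimer with Col4a4 and Col4a5, likewise held 29.6 CPM in NB A2 and 49.9 to 59.2 in the other NB libraries, and 8.81 to 17.8 CPM in the 5 later libraries low in lens markers. Col6a3, a beaded filament chain, was 0.996 to 3.58 CPM in those 6 libraries and 16.9 to 55.4 in the others. In each group these 6 libraries also held the lowest sums of sclera, cartilage and stroma markers and of Schwann cell and myelin markers. The former sum was 44.4 CPM in NB A2 and 106 to 129 in the other NB libraries. The log2 lens marker sum was used as a covariate in 1 fit, an alternative chosen after the data were seen. Lens RNA and RNA of other eye tissue cannot be told apart by it. Over all genes the main fit called 2854 higher and 3137 lower at 6h, 4057 and 4662 at 1d, and 3265 and 4051 at 3d. With the covariate these counts were also larger, at 3142 and 3341, 4323 and 4820, and 3510 and 4199. In the fit with the covariate the members called were 11 higher and 4 lower at 6h, 21 and 10 at 1d, and 24 and 8 at 3d. Col4a1 was then 0.74 higher (log2, adjusted p = 0.0031) and Col4a6 0.93 higher (9.2e-05) at 1d, while Col4a3 was 0.92 lower (0.0019) and Col4a4 0.80 lower (0.0017). In the same fit Lama5 was 0.84 higher at 1d, Lamc1 0.86 higher at 6h and Col16a1 1.37 higher at 1d, near their values without the covariate.

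**Figure D3:**
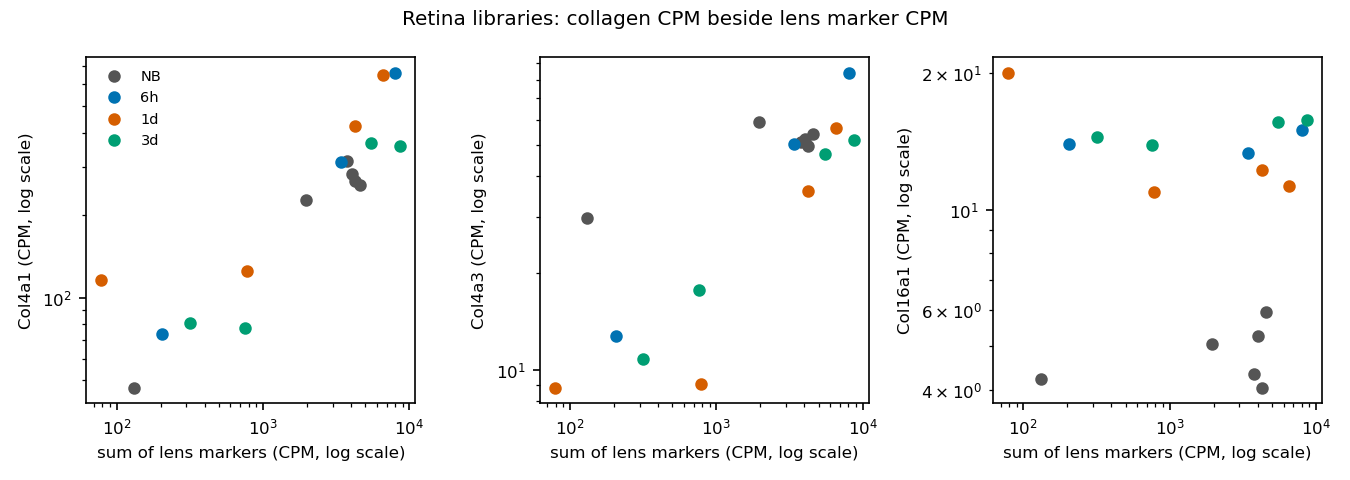
CPM of Col4a1, Col4a3 and Col16a1 (y axes, log scale) beside the summed CPM of 8 lens markers (x axes, log scale) in 17 retinal libraries, coloured by group. For Col4a1 the 6 libraries with the lowest lens sums lie below all others; for Col16a1 the NB libraries lie below all later libraries at every lens level.

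Of 8 fibril-associated collagens in the retina, 2 rose and 1 fell at 6h, 2 rose and 4 fell at 1d, and 3 rose and 3 fell at 3d. Over all genes 16.9%, 24% and 19.3% rose and 18.5%, 27.5% and 23.9% fell at those times. Col16a1, a minor collagen that joins fibrils and cell surface integrins, was 4.04 to 5.95 CPM in NB (median 4.68). It was 13.3, 13.95 and 15.0 at 6h, 11.3, 10.9, 20.1 and 12.2 at 1d, and 14.4, 13.9, 15.6 and 15.7 at 3d, all above NB. Its log2 fold changes were 1.47 ± 0.15 (adjusted p = 4.4e-07), 1.38 ± 0.14 (8.7e-08) and 1.55 ± 0.14 (8.7e-08), and within the depth sets 1.51, 1.36 and 1.53. Col9a1, a chain of collagen IX of the vitreous and cartilage, ran from 60.0 to 90.5 CPM in NB (median 85.0) and was 62.7, 54.98 and 82.6 at 6h. At 1d it was 39.0, 27.7, 29.7 and 41.6, all below NB, and at 3d 75.0, 105, 127 and 120. It fell by 1.22 ± 0.15 at 1d (adjusted p = 1.5e-06) and was 0.38 ± 0.15 above NB at 3d (0.047), a call lost without any of 8 libraries (up to 0.17). Col19a1, a collagen made by some neurons, fell by 0.72 ± 0.18 at 6h, 1.29 ± 0.16 at 1d and 0.47 ± 0.16 at 3d, from 4.31 to 7.54 CPM in NB to 1.86, 1.49, 2.70 and 2.32 at 1d. The 3d call was lost without NB B3, 3d 1 or 3d 3 (up to 0.077). Col20a1 (-0.44 ± 0.09 at 1d, -0.36 ± 0.09 at 3d) and Col22a1 (-0.80 ± 0.19 at 1d, -0.51 ± 0.19 at 3d) were lower too, Col22a1 at 3d not without any of 6 libraries (up to 0.17). Col12a1, which links fibrils to other matrix, was 0.18 to 0.25 higher at the 3 times, and its 6h and 3d calls were lost without single libraries (up to 0.13).

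Of 11 fibrillar collagens in the retina, none rose and 2 fell at 6h, 2 rose and 2 fell at 1d, and 4 rose and none fell at 3d, beside the same shares of all genes. Col2a1, the main fibrillar collagen of vitreous and cartilage, was 78.5 to 104 CPM in NB (median 86.3). Its values were 73.3, 65.9 and 71.7 at 6h, 49.5, 47.0, 58.0 and 45.4 at 1d, and 81.0, 100.1, 98.4 and 99.3 at 3d. The 6h and 1d libraries lay below NB and those of 3d within it. It fell by 0.33 ± 0.09 at 6h (adjusted p = 0.0092; 0.054 without 6h 2) and by 0.82 ± 0.09 at 1d (1.5e-07). Col5a3, a chain of collagen V, was 1030 to 1296 CPM in NB, and fell by 0.35 ± 0.11 at 6h and 0.31 ± 0.10 at 1d; these calls were lost without 6h 3 (0.12) and without 1d 1 (0.056). Col3a1, a fibril chain of vessel walls, was low, at 1.03 to 3.04 CPM in NB and 2.15, 5.514, 5.505 and 4.35 at 3d (0.88 ± 0.26, adjusted p = 0.011). Col11a1, which nucleates fibrils, was higher at 1d (0.47 ± 0.14), and Col11a1, Col5a1 and Col5a2 were 0.36, 0.35 and 0.39 higher at 3d, calls that each failed without 3 or more single libraries. Col24a1 was 0.24 ± 0.09 higher at 1d, not without any of 6 libraries (up to 0.12), and Col1a1 and Col1a2 were not called.

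Of 4 transmembrane collagens 2 were higher at 1d and 3 at 3d and none lower, against 24% and 19.3% of all genes higher, and Col13a1 was not called at any time. Col25a1, a neuronal transmembrane collagen, was 14.02 to 19.5 CPM in NB (median 16.9) and 18.8, 19.6 and 18.1 at 6h. It reached 41.8, 36.1, 37.9 and 42.4 at 1d and stood at 27.1, 25.7, 22.4 and 24.1 at 3d. Both later groups lay above NB (1.22 ± 0.08, adjusted p = 4.9e-10, and 0.56 ± 0.08, 2.6e-05). Col17a1, the hemidesmosomal collagen, went from 4.50 to 5.64 CPM in NB to 12.02, 9.62, 10.4 and 8.44 at 1d (0.96 ± 0.10, adjusted p = 2.2e-07) and was still higher at 3d (0.54 ± 0.10). Col23a1 had a mean of 105.2 CPM in NB and 97.0 at 1d, with no call, and was higher at 3d, at 135, 148, 159 and 152 CPM against 92.6 to 109.8 in NB (0.49 ± 0.07, adjusted p = 1.9e-05). Of the multiplexins, which carry heparan or chondroitin sulfate chains, Col15a1 rose at 1d (0.80 ± 0.19, adjusted p = 0.0016), and Col18a1, source of endostatin, was not called. Among beaded filament chains Col6a6 was higher at all times (0.56 ± 0.19, 0.90 ± 0.18, 0.80 ± 0.18), at 6h not without any of 4 libraries (up to 0.20), and Col6a1 and Col6a4 were 0.23 and 0.37 higher at 3d. Col8a1, a chain of the hexagonal network of Bruch's and Descemet's membranes, rose at 1d (0.38 ± 0.14; not without NB A1, NB A2, 1d 1 or 1d 2, up to 0.093) and 3d (0.57 ± 0.14, adjusted p = 0.0028). Col7a1, of anchoring fibrils, was 0.30 ± 0.09 higher at 6h and 0.22 ± 0.08 lower at 3d, and both calls were lost without single libraries (up to 0.14).

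Between 1d and 3d in the retina 6 of 51 members rose and 5 fell (median 0.11), against 9.79% of all genes higher and 11.6% lower (median 0.00). Col9a1 rose by 1.61 ± 0.17 (adjusted p = 8.0e-07), Col2a1 by 0.92 ± 0.09 (7.0e-07), Col19a1 by 0.82 ± 0.18 and Col9a3, of the same trimer as Col9a1, by 0.69 ± 0.18. Col23a1 (0.61 ± 0.08) and Lama3 (0.95 ± 0.27; 0.057 without 1d 2) rose too. Among the falls were those of Col25a1 (-0.66 ± 0.09), Col8a2 (-0.54 ± 0.17), Col17a1 (-0.42 ± 0.11) and Col7a1 (-0.30 ± 0.09). The calls of Col8a2 and Col7a1 were lost without single libraries (up to 0.091). Lower members numbered 3 without 1d 1, 1d 4 or 3d 1.

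In the RPE far fewer genes were called in all. At 6h none of 48 members was higher and 2 were lower (median -0.16), with 0.808% of all genes higher, 0.652% lower and a median of 0.00. At 1d none was higher and 7 lower (median -0.30), with 1.77% and 3.84% of all genes and a median of 0.00. At 3d no member was called by limma (median 0.20), with 0.162% of all genes higher and 0.018% lower and a median of 0.00; 9 members had an unadjusted p under 0.05, edgeR called none and DESeq2 called 1 lower. The share of members lower at 1d thus lay above that of all genes. Scaling to library totals gave 119 genes higher and 28 lower at 6h against 135 and 109, with 1 member lower. At 6h DESeq2 gave 684 genes higher and 566 lower, with 7 members lower, and at 3d 81 and 58 against 27 and 3. Within the depth set the count of lower members was 4 at 1d, with 442 genes lower over all against 641. At 6h NB has 1 library in its depth set, so no count is given.

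Collagen IV led the fall at 1d: 4 of 6 genes were lower, and all 6 had negative fold changes. Col4a4 was 269, 178, 166, 118 and 152 CPM in NB, 80.2, 99.8 and 103 at 6h, 67.2, 89.3, 44.0 and 65.9 at 1d, and 156, 271, 174 and 177 at 3d. Its partner Col4a3 was 226, 133, 126, 87.3 and 112 CPM in NB, 73.9, 98.4 and 94.9 at 6h, 49.3, 65.7, 37.0 and 59.0 at 1d, and 118, 209, 131 and 131 at 3d. For both genes every 1d library lay below every NB library, and 3d overlapped NB. Col4a4 fell by 1.39 ± 0.23 (adjusted p = 0.0018) and Col4a3 by 1.32 ± 0.24 (0.0034) at 1d, and within the depth set by 1.23 and 1.13. The X-linked pair Col4a5 and Col4a6, whose upstream sequences are printed above, fell by 0.81 ± 0.22 (0.044) and 1.00 ± 0.26 (0.035), with 1d values of 60.6, 77.5, 99.4 and 47.1 CPM for Col4a5 and 20.8, 23.6, 34.7 and 13.2 for Col4a6, overlapping NB. Col4a5 lost its call without any of 11 libraries (up to 0.13) and Col4a6 without any of 7 (up to 0.11). Col4a1 (-0.38 ± 0.35) and Col4a2 (-0.32 ± 0.25), the other trimer, were not called.

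The sum of RPE markers moved with these genes. Of the 10 markers 1 was lower at 6h and 3 at 1d, and none was higher (medians -0.55 and -0.67). Over all genes 0.652% and 3.84% were lower at those times. The summed CPM of 10 RPE markers, among them Rpe65 and Ttr, was 27564, 22334, 22347, 16016 and 18156 in NB, 10093, 14415 and 13897 at 6h, 12562, 13124, 8839 and 11672 at 1d, and 16945, 30106, 19900 and 21073 at 3d. Microglia and macrophage markers were also lowest at 1d, with sums of 233 to 328 CPM in NB, 167 to 221 at 6h, 134 to 169 at 1d and 297 to 427 at 3d, and 1 of 9 was lower at 1d. Of 12 endothelium markers 3 were lower at 1d (median -0.65), with sums of 87.0 to 149 CPM in NB, 112 to 129.6 at 6h, 57.4 to 100.3 at 1d and 87.5 to 123 at 3d. The part of these 2 cell types was not tested. Across the 16 RPE libraries the log2 RPE marker sum went with that of Col4a4 (Pearson's r = 0.97, Spearman's rho = 0.97, both permutation p = 1e-05, the smallest that the permutations can give, adjusted 2e-05) and of Col4a3 (r = 0.94, rho = 0.94, the same p). Without the 2 libraries farthest from the median r was 0.95 and 0.90, and within the 12 shallower libraries 0.98 and 0.98. For Col4a5 r was 0.78 and rho 0.90 (permutation p = 0.00029 and 1e-05, adjusted 0.00039 and 2e-05), without those 2 libraries r was 0.86 and within the shallower set 0.75. For Col4a6 r was 0.75 and rho 0.86 (permutation p = 0.00074 and 4e-05, adjusted 0.00085 and 5.3e-05), with r of 0.81 and 0.75 in the 2 smaller sets. The permutations exchange libraries between the groups, whose means differ in both values, so these p-values also reflect the shared course over NB, 6h, 1d and 3d. After each group's mean was taken off both values, r was 0.94 for Col4a4, 0.92 for Col4a3, 0.49 for Col4a5 and 0.47 for Col4a6, given as a description. These are 4 of 8 relations computed, adjusted together, and all values share the CPM scale of their library. A fit with the RPE marker sum as a covariate was an alternative chosen after the data were seen. The marker sums of NB and 1d did not overlap, so in this fit marker level and group cannot be told apart. A smaller difference there is no measure of the part of RPE content. The 1d differences were -0.37 for Col4a4 (limma adjusted p = 0.17), -0.27 for Col4a3 (0.43), -0.29 for Col4a5 (0.68) and -0.40 for Col4a6 (0.63). At 1d 3 members were lower and 1 higher, and over all genes 431 were lower and 304 higher, against 641 and 296 in the main fit.

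**Figure D4:**
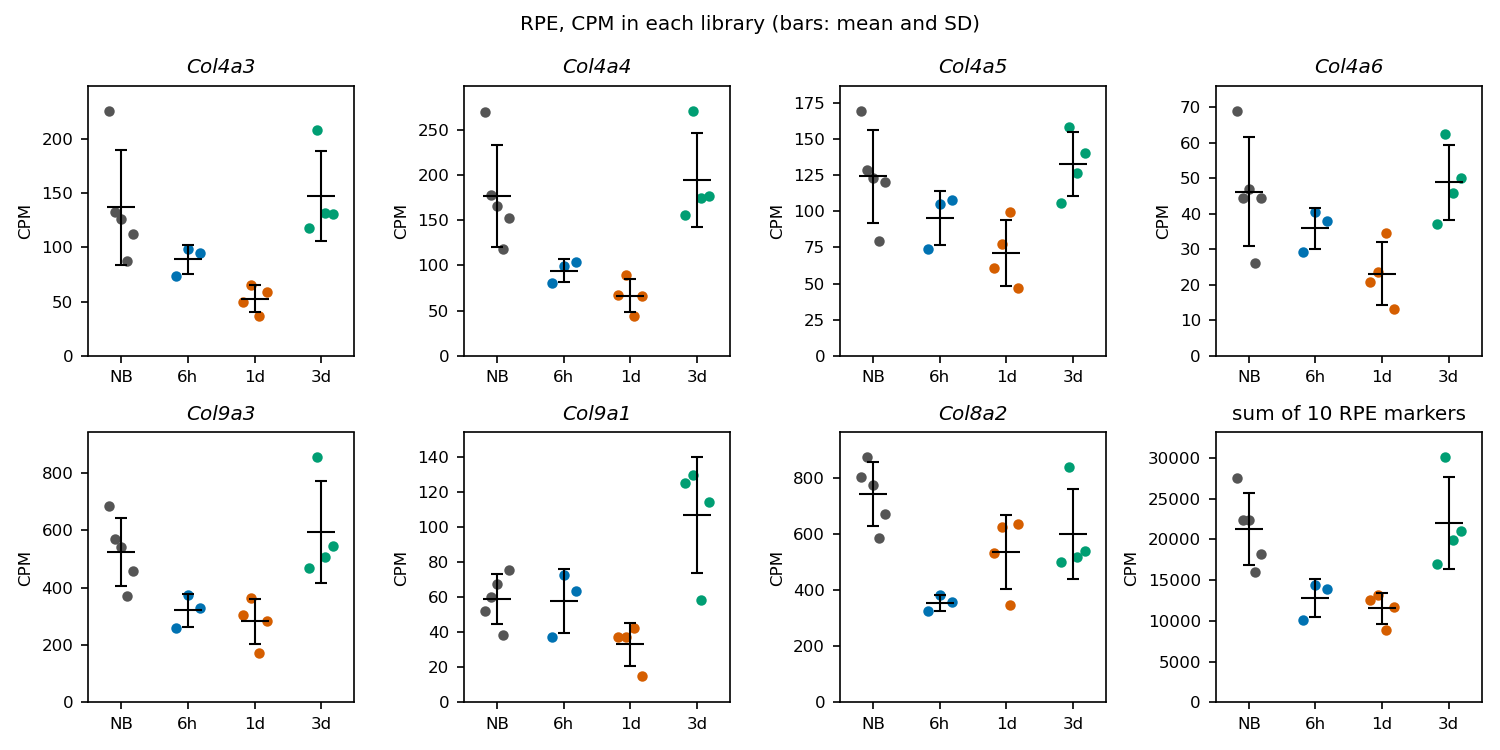
CPM (y axes, from 0) of 7 collagen genes and the summed CPM of 10 RPE markers in every RPE library (points) by group (x axis, NB n = 5, 6h n = 3, 1d and 3d n = 4), with the mean and SD as bars. Col4a3, Col4a4 and the marker sum are lowest at 1d and at the NB level at 3d; Col8a2 is lowest at 6h.

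Other RPE members were lower at 1d or 6h. Col9a3, of collagen IX, was 683, 570, 541, 371 and 459 CPM in NB and 306, 365, 174 and 283 at 1d, below every NB library (-0.91 ± 0.23, adjusted p = 0.028), a call lost without NB A1, NB B1, NB B2, 1d 3 or 1d 4 (up to 0.072). With the RPE marker covariate its 1d difference was 0.12 (0.70). Col5a2, a chain of collagen V, fell by 0.92 ± 0.20 (adjusted p = 0.012), with 8.20, 6.65, 10.3 and 7.93 CPM at 1d against 10.0 to 22.3 in NB. Col10a1, known from growth plate cartilage, fell from 0.706 to 1.84 CPM in NB to 0.0789, 0.273, 0.154 and 0.238 at 1d (-1.30 ± 0.19, adjusted p = 0.00069), and with the RPE marker covariate by 1.21 (0.043). Only NB libraries reached 1 CPM, so Col10a1 passed the filter through the group where it was high. Its fall is thus not independent of the filter, and in 1d 1 a single read amounts to 0.0789 CPM. The network chain Col8a2 was 804, 875, 775, 586 and 673 CPM in NB and 325, 381 and 358 at 6h (-1.05 ± 0.21, adjusted p = 0.028), with no overlap. Col3a1 was 49.0, 91.2, 96.6, 47.4 and 84.8 CPM in NB and 28.6, 30.8 and 37.5 at 6h (-1.12 ± 0.27, 0.049). Both 6h calls failed when single libraries were left out: that of Col8a2 without 6h 1, 6h 3, NB B1, NB B2 or NB B4 (up to 0.22), and that of Col3a1 without any of 10 libraries (up to 0.29). At 1d the count of lower members was 4 without NB A1, NB B1, NB B2 or 1d 4.

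From 1d to 3d in the RPE 12 of 48 members rose and none fell (median 0.49), against 4.92% of all genes higher and 1.66% lower (median -0.01), or 823 and 277 genes, which became 1270 and 707 with DESeq2. Col9a1 rose from 37.5, 37.3, 42.6 and 15.1 CPM to 125, 130.0, 58.3 and 115 (1.71 ± 0.33, adjusted p = 0.0079). Col4a4 rose by 1.55 ± 0.24 (0.0026), Col4a3 by 1.47 ± 0.25 (0.0044), Col4a6 by 1.12 ± 0.28 and Col4a5 by 0.93 ± 0.23. Col11a1 (1.25 ± 0.34), Col5a2 (1.12 ± 0.21), Col9a3 (1.08 ± 0.24), Col18a1 (0.99 ± 0.24), Col5a1 (0.96 ± 0.23), Col8a1 (0.81 ± 0.22) and Lamc1 (0.48 ± 0.13) rose as well. The count was 5 without 1d 4 or 3d 4 and 4 without 3d 2. It was 4 when the 1d and 3d libraries were fitted alone, 5 with the lens marker covariate, 4 with the surface epithelium marker covariate and 0 with the RPE marker covariate, all 4 chosen after the data were seen. Over all genes the higher counts fell too, from 823 to 427, 315, 343 and 20 in those fits. The RPE marker sums of 1d and 3d did not overlap, so that covariate and the group cannot be told apart. The 1d and 3d comparisons with NB share the NB libraries, and this comparison shares 1d with the first of them.

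Laminin chains of the RPE gave no call against NB by limma, edgeR or DESeq2, with 1 of 11 at an unadjusted limma p under 0.05 at each time. Lama5 was 103 to 135 CPM in NB and 113 to 147 at 1d (0.10 ± 0.09), and Lamb2 128 to 163 in NB and 126 to 148 at 1d (-0.17 ± 0.10). Lama3 and its hemidesmosome partner Col17a1 went with the surface epithelium markers across libraries, and Lamb3 less closely by its coefficients, with no test of that difference. Library 1d 4, with the highest marker sum (49895 CPM), held the highest Col17a1 (1326 CPM) and Lama3 (80.8 CPM), and 3d 2, with 12203 CPM of markers, held 29.4 CPM of Lama3 and 15.0 of Lamb3, the lowest of each. Over the 16 libraries r and rho were 0.92 and 0.87 for Col17a1 (permutation p = 1e-05 and 4e-05, adjusted 2e-05 and 5.3e-05) and 0.89 and 0.90 for Lama3 (both 1e-05, adjusted 2e-05). They were 0.68 and 0.56 for Lamb3 (permutation p = 0.005 and 0.028, adjusted 0.005 and 0.028). Without the 2 farthest libraries r was 0.84, 0.91 and 0.75 in that order, and within the 12 shallower libraries r was 0.93, 0.93 and 0.69 and rho 0.90, 0.87 and 0.40, lowest for Lamb3. After each group's mean was taken off both values, r was 0.94 for Col17a1, 0.94 for Lama3 and 0.78 for Lamb3. A fit with the epithelium marker sum as a covariate was chosen after the data were seen. Over all genes it called 848 lower at 6h and 536 at 1d, against 109 and 641 in the main fit. In the fit with the covariate 6 members were lower at 6h and 5 at 1d. Col4a4 was then 1.13 lower (log2, adjusted p = 0.0016) and Col4a3 1.07 lower (0.0047) at 1d, while Col4a5 (-0.51, 0.056) and Col9a3 (-0.69, 0.060) lost their calls.

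**Figure D5:**
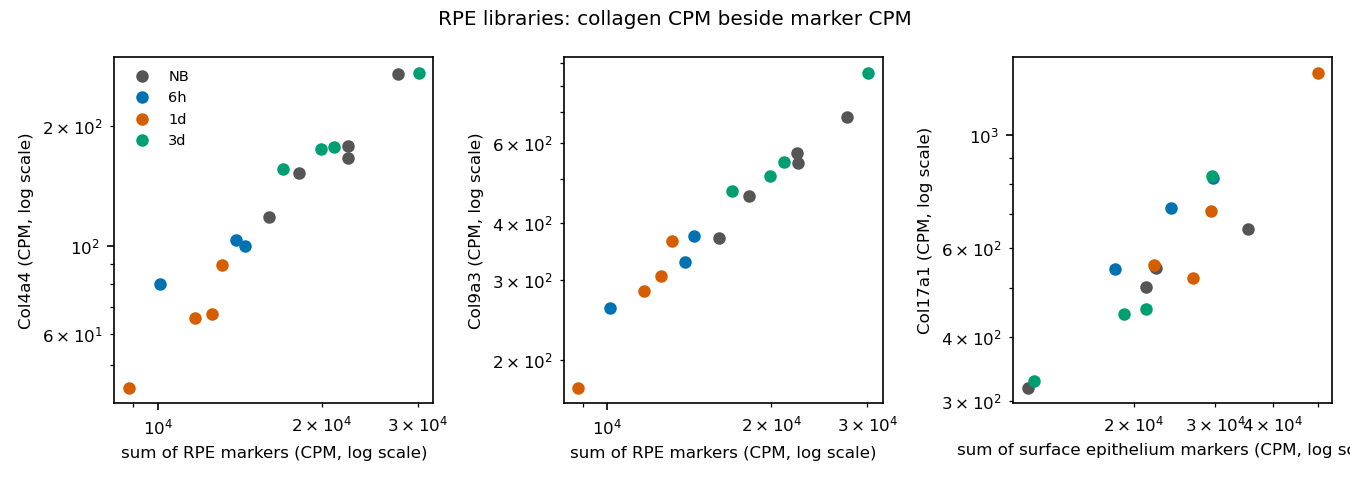
CPM of Col4a4 and Col9a3 beside the summed CPM of 10 RPE markers, and of Col17a1 beside that of 9 ciliary and surface epithelium markers, in 16 RPE libraries coloured by group (all axes on a log scale). Col4a4 goes up with the RPE marker sum (r = 0.97) and Col17a1 with the epithelium sum (r = 0.92).

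The difference between the tissue responses (RPE minus retina, each against its own NB) was tested in 1 fit for the 46 shared members. The sample titles do not say whether a retinal and an RPE library came from the same mouse. All libraries entered the fit as independent, so any such pairing was ignored. At 6h 1 member was higher and 9 lower in that difference (median -0.31), with 9% of all genes higher and 8.56% lower (median 0.02). At 1d 3 were higher and 11 lower (median -0.41), with 9.66% and 12.1% of all genes (median 0.00), and at 3d none was higher and 3 lower (median 0.04), with 6.26% and 5.93% (median 0.05). Retina and RPE tables were normalized separately. Col16a1 differed at all times (-1.78 ± 0.27, -1.65 ± 0.25 and -1.60 ± 0.25, adjusted p from 1.9e-05 to 0.00015): its RPE levels were 17.4 to 43.5 CPM in NB and 18.7 to 31.5 later, with no call. Lama5 (-0.78 ± 0.16, -0.69 ± 0.14 and -0.52 ± 0.14) and Lamb2 (-0.59 ± 0.19, -0.63 ± 0.18 and -0.57 ± 0.18) also differed at all times, Lamb2 at 6h and 3d not without single libraries (up to 0.17). Lamc1 differed at 6h (-0.97 ± 0.19). Both collagen VIII chains differed at 6h (Col8a1 -1.02 ± 0.28, Col8a2 -1.44 ± 0.27) and 1d (-0.78 ± 0.26 and -0.84 ± 0.25), Col8a1 at 6h not without RPE 6h 1 (0.066) and at 1d not without any of 6 libraries (up to 0.088). Col2a1 (1.08 ± 0.34), Lama3 (1.04 ± 0.34) and Col20a1 (0.61 ± 0.18) were the 3 called with a positive difference at 1d, each lost without 1 to 3 single libraries (up to 0.090). Lower members at 6h numbered 4 without RPE 6h 1, higher members at 1d 1 without RPE 1d 2, and the single higher member at 6h, Col20a1, was lost without any of 12 libraries. Scaled to library totals, which moved the median of all genes to -0.17 at 1d, the counts were 1 higher and 5 lower at 6h, 0 and 13 at 1d, and 0 and 4 at 3d. Over all genes that split was 667 higher and 3237 lower at 1d against 1459 and 1825, and 365 and 1292 at 3d against 946 and 896.

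Genes that bind, read or process these proteins were counted from lists chosen with earlier results of these data known. Their counts beside all genes are therefore given as a description. Of 18 basement membrane partners in the retina 5 were higher and none lower at 6h, 11 higher and 1 lower at 1d, and 9 higher and 1 lower at 3d (medians 0.19, 0.29 and 0.30). The shares of all genes were 16.9%, 24% and 19.3% higher and 18.5%, 27.5% and 23.9% lower at 6h, 1d and 3d, with medians of 0.00, -0.01 and -0.02, and they apply to each retinal list here. Agrn, the proteoglycan agrin, was 0.80 ± 0.05 higher at 1d (adjusted p = 5.9e-10), Fn1, fibronectin, 0.82 ± 0.10 and Fbln5, a fibulin of elastic fibres, 1.73 ± 0.21. Nidogens (Nid1, Nid2) and perlecan (Hspg2) were not called. Of 16 tested receptors for laminin or collagen, 6, 10 and 10 were higher at 6h, 1d and 3d and none lower (medians 0.28, 0.41 and 0.34), beside 16.9%, 24% and 19.3% of all genes higher. The hyaluronan receptor Cd44, which also binds collagen, rose from 15.9 ± 4.39 CPM in NB (SD, n = 6) to 72.5 ± 13.6 at 6h (n = 3) and 134 ± 20.1 at 1d (n = 4), a log2 fold change of 3.07 ± 0.18 at 1d (adjusted p = 6.7e-11). Ddr1, a collagen-binding receptor kinase, rose by 0.88 ± 0.07 at 1d and 1.01 ± 0.07 at 3d, and the integrin gene Itga3, for laminin, by 0.78 ± 0.07 at 1d.

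Of 30 tested genes for collagen folding, crosslinking and processing, 10 were higher and 2 lower in the retina at 6h, 15 and 3 at 1d, and 14 and 2 at 3d (medians 0.18, 0.34 and 0.27), beside 16.9% of all genes higher and 18.5% lower at 6h, 24% and 27.5% at 1d, and 19.3% and 23.9% at 3d. Loxl4, a lysyl oxidase that crosslinks collagen, went from 1.50 ± 0.651 CPM in NB (SD, n = 6) to 16.3 ± 2.19 at 1d (n = 4), by 3.13 ± 0.20 (adjusted p = 3.1e-10). Bmp1, the procollagen C-proteinase, rose by 1.49 ± 0.07 (2.7e-12) and the prolyl hydroxylase subunit gene P4ha3 by 1.76 ± 0.14 at 1d. Of 18 TGF-beta ligands, receptors and targets, 7 were higher and none lower at 6h, 8 and 1 at 1d, and 8 and 2 at 3d (medians 0.31, 0.37 and 0.37), beside those same shares of all genes. Tgfb2, a ligand, rose by 1.07 ± 0.07 at 1d (adjusted p = 3.9e-10), the matricellular gene Ccn1 by 2.87 ± 0.23 at 6h and the receptor gene Tgfbr1 by 0.64 ± 0.06 at 6h.

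In the RPE the same lists held few calls. Of the 18 partners 1 was higher and 2 lower at 1d, when 1.77% of all genes were higher and 3.84% lower: Fbln5 rose at 1d, from a mean of 76.0 ± 19.5 CPM (SD, n = 5) to 185.6 ± 41.6 (SD, n = 4; limma adjusted p = 0.0017), while Ntn4, a laminin-related netrin, fell on the log2 scale by 1.18 ± 0.16 (0.00035) and Smoc1 by 0.63 ± 0.16 (0.028). Of the processing genes Adamts3, a procollagen N-proteinase, rose at 6h (1.25 ± 0.27, adjusted p = 0.037) and Loxl4 at 1d (0.71 ± 0.19, 0.036). Of the TGF-beta list the receptor gene Tgfbr2 fell at 6h and 1d (-0.53 ± 0.11 and -0.52 ± 0.10) and Ccn2, a target, at 1d (-0.92 ± 0.19, adjusted p = 0.0073).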

How the data were processed

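RNA-seq libraries of mouse retina (17) and RPE (16) were used. The deposited tables give CPM per gene and library as a signal on the authors' effective library sizes, per the file headers, together with the authors' log2 fold changes and p-values, which were not used here. Trimmomatic, STAR, edgeR and GRCm38 are named without versions per the submitters' processing notes, and the read counter and its strand setting are not given in the sources used here. Retinal and RPE values come from separately normalized tables, and ATAC-seq samples were not analysed here.

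Ensembl identifiers were matched to symbols (6 retinal and 7 RPE identifiers had none). Genes reaching 1 CPM in 3 or more libraries of a tissue were tested with limma 3.58.1 (R 4.3.3) on log2(CPM + 0.5), with an intensity trend, all groups of a tissue in 1 fit and Benjamini-Hochberg adjustment over all genes, so fold changes of low genes are understated. The tissue difference was fitted over 15105 genes of both tissues. Whole reads could be recovered from the CPM steps for 100% of values within 0.01, and served edgeR 4.0.16 and DESeq2 1.42.0 as alternatives. On these reads edgeR called 4045 genes higher and 4554 lower in the retina at 1d, and 334 and 626 in the RPE. The other alternatives were pseudocounts of 0.1 and 2, no filter, library totals, libraries of 1 depth set, leaving out each library, and a block on the replicate number. Covariates of marker sums and the fit of 1d and 3d alone were chosen after seeing the data. Relations across libraries used 100000 permutations, two-sided. The limma script was tested on simulated data. Promoter windows are from RefSeq (GRCm38.p6).

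Replicates within a tissue are libraries of separate mice, as both eyes of a mouse were pooled per the labels' protocols. NB columns could be assigned to the group but not to single samples, and are named A1, A2 and B1 to B4 here. Members and gene lists were chosen with earlier results of these data known. Named by rule were up to 5 called members per direction and time without group overlap and with a mean CPM of at least 2, the 2 members of each class with the smallest adjusted p, and up to 3 genes of each other list. Other members named in the text were chosen after their values were seen. The values of 1 member are not reported here; it is counted among the members.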

Additional observations from a re-analysis of the deposited data

Results flagged for a closer look

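Single libraries stood apart from their group for 11 of 132 combinations of a named gene and an NB, 1d or 3d group. The 6h groups, with 3 libraries each, were not tested. Chance alone flags about 1 in 20 of independent combinations, and these share libraries. In the retina 1d 3 held 20.1 CPM of Col16a1 (10.9 to 12.2 in the other 1d libraries) and 80.5 CPM of Col20a1 (56.9 to 60.8). Library 3d 1 held 81.0 CPM of Col2a1 (98.4 to 100.1 in the others). NB A2, the NB library lowest in lens markers, held 29.6 CPM of Col4a3 (49.8 to 59.2) and 24.1 CPM of Col4a4 (42.2 to 49.8). In the RPE 3d 2, the library with the highest RPE marker sum, held 208.6 CPM of Col4a3 (118 to 131) and 840.0 CPM of Col8a2 (502 to 539.8). NB A1 held 7.05 CPM of Col25a1 (0.932 to 2.20), NB B3 127.8 CPM of Lamb2 (156 to 163), 1d 3 75.2 CPM of Col3a1 (35.2 to 38.5) and 1d 2 0.728 CPM of Lamc3 (1.42 to 1.54).

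Responses of named members that differed between the tissues by the test of the difference (RPE minus retina, log2) were these. At 6h they were -1.78 for Col16a1, -1.44 for Col8a2, -1.02 for Col8a1, -0.97 for Lamc1, -0.89 for Col15a1, -0.86 for Col5a2, -0.78 for Lama5, -0.59 for Lamb2 and 0.57 for Col20a1. Single libraries left out ended the 6h calls of Col15a1 (any of 13, adjusted p up to 0.13), Col5a2 (retina 6h 2 or RPE 6h 1, up to 0.088) and Col8a1 (RPE 6h 1, 0.066). At 1d the fibrillar genes Col3a1, Col11a1 and Col5a2 differed by -1.31, -1.28 and -1.09, and Col2a1 by 1.08. Col16a1 differed by -1.65, Col15a1 by -1.22, Col25a1 by -1.13, Col8a2 by -0.84, Col8a1 by -0.78 and Col20a1 by 0.61 at 1d. The laminin differences at 1d were -0.69 for Lama5, -0.63 for Lamb2 and 1.04 for Lama3. At 3d Col16a1 differed by -1.60, Lamb2 by -0.57 and Lama5 by -0.52.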

How the results depend on the processing

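Counts of members called moved by over 1.5 times as follows, and the cause was not tested. Leaving out single libraries gave 4 to 8 higher at 6h (main 7), 2 to 5 lower at 3d (main 5) and 3 to 5 lower between 1d and 3d (main 5) in the retina. In the RPE it gave 0 to 1 higher and 0 to 3 lower at 6h (main 0 and 2), 4 to 10 lower at 1d (main 7), 0 to 1 lower at 3d (main 0) and 4 to 15 higher between 1d and 3d (main 12). For the tissue difference it gave 0 to 2 higher and 4 to 12 lower at 6h (main 1 and 9), 1 to 3 higher at 1d (main 3) and 0 to 1 higher at 3d (main 0). Library totals gave 21 higher at 1d and 27 higher and 2 lower at 3d in the retina, 1 lower at 6h in the RPE, and 5 lower at 6h and 0 higher at 1d in the tissue difference. Within a depth set there were 3 lower at 3d in the retina and 4 lower at 1d in the RPE. Lower genes over all numbered 3755 (main 4051) and 442 (main 641) in those fits. At 6h the RPE depth set holds 1 NB library, so counts that use it are left out. DESeq2 gave 11 higher at 6h in the retina, and 7 lower at 6h and 1 lower at 3d in the RPE. A pseudocount of 0.1 gave 1 lower at 6h in the RPE. Over all genes DESeq2 called 3412 higher at 6h in the retina (main 2854). The pseudocount of 0.1 gave 100 genes lower at 6h in the RPE (main 109). Of the alternatives chosen after seeing the data, the lens marker covariate gave 11 higher at 6h, 21 higher at 1d, 8 lower at 3d and 9 lower between 1d and 3d in the retina, and 1 lower at 6h and 5 higher between 1d and 3d in the RPE. Over all genes the retinal lens fit gave 3142 higher at 6h (main 2854) and 4323 at 1d (main 4057). Lower genes in that fit numbered 4199 at 3d (main 4051) and 2240 between 1d and 3d (main 1969). Of the members the surface epithelium covariate gave 1 higher and 6 lower at 6h, 1 lower at 3d and 4 higher between 1d and 3d in the RPE. Over all genes that fit called 760 higher and 848 lower at 6h (main 135 and 109) and 63 lower at 3d (main 3). The RPE marker covariate gave 1 higher at 6h, 1 higher and 3 lower at 1d, 1 lower at 3d and 0 higher between 1d and 3d. It turned the sign of Col9a3 at 1d (0.12) and of Col8a1 between 1d and 3d (-0.16). Over all genes the RPE marker fit called 327 higher and 899 lower at 6h (main 135 and 109). At 3d it called 61 higher and 66 lower (main 27 and 3). The fit of 1d and 3d alone gave 4 higher in the RPE. Over all genes 823 were higher between 1d and 3d in the main RPE fit. That count was 315 with the lens covariate, 343 with the surface epithelium covariate and 20 with the RPE marker covariate. It was 427 with 1d and 3d alone and 189 with the replicate block. With the replicate block, possible between 1d and 3d alone since NB columns carry no number of a sample, 4 members were higher in the RPE (main 12), and 7 higher and 4 lower in the retina (main 6 and 5). Same-numbered 1d and 3d libraries correlated from -0.32 to 0.23 in the retina and from -0.04 to 0.16 in the RPE. Not every library correlated best with its own number. With 4 libraries in a group these values cannot tell whether same-numbered libraries share more than a number. Single members kept their direction and call in 83 comparisons with edgeR and 83 with DESeq2 (2 lost the call with each), 112 without the filter (0 lost) and 61 within a depth set (28 lost). Depth limits members near 1 CPM, such as Col10a1, where a library holds few reads.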
